A study of Mus musculus with 6 samples.

Results

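The genes of mouse chromosome 15 were followed in their order along the chromosome. Members were chosen by position and by level: rows of the deposited read table placed on chromosome 15 with a mean scaled read count of at least 10 over the 6 libraries, after 33 rows of the aquaporin, gasdermin, Zhx and keratin families had been left out. This gave 582 members of the 750 rows on the chromosome and of the 20896 rows in the table. A further 135 rows fell under the read limit. Just under it lay Cpq, Cyp2d9 and Hoxc6, with mean scaled read counts of 9.94, 9.95 and 9.99, and just over it lay Tnfrsf11b, Mpped1 and Ankrd33, with 10.02, 10.04 and 10.09. The value that chose them, the mean read count, was taken over both groups, whichever was higher. A member of low level could still pass through its higher group alone. In the GENCODE M21 annotation of GRCm38, 581 members were found on chromosome 15, of which 564 were protein coding. All 582 members were kept by the filter on low reads, so each has a test.

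The RNA came from mpkCCD cells, a mouse line of the kidney cortical collecting duct, grown on permeable supports. The groups were 3 control clones and 3 clones labelled PKA dKO, a double knockout of protein kinase A made in the same parental line, with 1 library from each clone. All 6 clones had 4 days of growth with 2% serum, then 3 days of 0.1 nM dDAVP, an agonist of the V2 vasopressin receptor, in medium without serum or hormones. No sample without dDAVP was analysed here, each line is 1 clone, and which genes were edited is not in the labels, nor do they tie a control clone to a dKO clone.

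A chromosome carries genes of unrelated function side by side, and neighbours along it are usually read from their own promoters. Many members make general parts of the cell, such as ribosomal proteins, subunits of the translation factor eIF3, cytoskeletal proteins, and enzymes of mitochondria. Others belong to the pathway that the knockout touches: protein kinase A is activated by cyclic AMP, phosphorylates CREB and its relative ATF1, and so acts on genes whose promoters hold a cyclic AMP response element.

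The 250 bases before the annotated start are shown for 3 members: 1 called gene and 2 genes from the lower stretch near the start of the chromosome. Ptger4, the receptor for prostaglandin E2 that couples to cyclic AMP, and Rai14, an actin-binding ankyrin protein, lie in that stretch. They were taken as its member of the cyclic AMP list and as 1 of its lowest members with separate groups, and neither passed the test. Mettl7a1, the called gene, a methyltransferase-like protein of the endoplasmic reticulum and lipid droplets, lies near the other end. Sequences are from RefSeq on GRCm38.p6 and run from 5′ to 3′ on the strand of the gene; Ptger4 covers chr15:5244188-5244437 on the minus strand, Rai14 chr15:10713541-10713790 on the minus strand and Mettl7a1 chr15:100304567-100304816 on the plus strand. Capitals mark matches to a GC box, a CCAAT box or a TATA box on either strand.
Ptger4: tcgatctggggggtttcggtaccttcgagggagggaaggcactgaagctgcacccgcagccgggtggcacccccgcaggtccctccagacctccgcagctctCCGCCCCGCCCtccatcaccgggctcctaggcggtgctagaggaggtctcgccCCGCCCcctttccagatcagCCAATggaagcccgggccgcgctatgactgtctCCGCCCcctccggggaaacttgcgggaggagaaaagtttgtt
Rai14: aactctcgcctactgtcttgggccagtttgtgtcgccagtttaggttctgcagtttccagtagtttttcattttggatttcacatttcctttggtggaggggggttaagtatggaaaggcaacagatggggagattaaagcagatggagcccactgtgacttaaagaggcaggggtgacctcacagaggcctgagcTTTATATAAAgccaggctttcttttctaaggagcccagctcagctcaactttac
Mettl7a1: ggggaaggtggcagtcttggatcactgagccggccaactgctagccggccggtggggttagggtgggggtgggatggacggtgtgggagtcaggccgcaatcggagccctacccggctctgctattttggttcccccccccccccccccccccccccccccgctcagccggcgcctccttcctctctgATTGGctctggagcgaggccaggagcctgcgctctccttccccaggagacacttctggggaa

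Ptger4 held 4 matches to GGGCGG, the GC box, read on the other strand as CCGCCC, with the first 2 overlapping by 1 base, and 1 CCAAT. Rai14 held TATAAA on both strands in overlapping letters and no GC box, and Mettl7a1 held 1 CCAAT, on the other strand as ATTGG. None of the 3 windows held TGACGTCA, the full cyclic AMP response element, or its shorter core TGACG on either strand. Of 9 windows searched for named members, which include these 3, 0 held TGACGTCA, while those of Tars and Slc1a3, both in the lower stretch, held 1 TGACG each. Among 12342 promoter windows of the same length matched to tested transcripts, 2.33% held TGACGTCA, 24.1% TGACG (which the full element contains), 53.4% GGGCGG, 35.4% CCAAT and 8.20% TATAAA. Promoters were found for 299 of the 582 members (51.4%) and for 53 of the 120 members in the lower stretch (44.2%), so shares were not compared between sets of members. Nadk2, Oxr1 and Baiap2l2, described with the called members, were not among those matched.

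Recovered reads per library numbered 28596444 to 42515838. Control clone 1 and dKO clone 3 stood apart, since 2443 and 2363 transcripts had no read there and 863 to 1045 had none in each of the rest. Both differ from the rest mainly in genes of low level. The labelled cell type was checked by the summed level of Epcam, Cdh1, Krt8 and Krt18, markers of epithelium, which was 4175 to 4590 CPM (a gene's reads as a share of its library's total, adjusted with TMM factors and scaled up alike in all libraries) in control and 3828 to 4138 CPM in dKO libraries. Markers of principal cells summed to 1014 to 1490 CPM in control and 1125 to 1198 CPM in dKO libraries. Such a sum does not show single genes: Aqp2, the water channel described below, had a log2 fold change (dKO over control) of -6.30. Markers of intercalated cells summed to at most 43.9 CPM in control and 44.3 CPM in dKO libraries. Those of proximal tubule summed to at most 10.4 CPM in control and 10.5 CPM in dKO libraries. Those of fibroblasts, endothelium and leukocytes each stayed under 6 CPM in every library. Prkaca, for a catalytic subunit of protein kinase A, ranged from 75.9 to 133 CPM over the control libraries. Over the dKO libraries it ranged from 6.65 to 8.49 CPM. Prkacb, for another catalytic subunit, kept most of its level, with 137, 109 and 116 CPM in control and 99.1, 105 and 105 CPM in dKO libraries. Each dKO value lay below each control value, but Prkacb, at -0.23 on the log2 scale, did not pass the test.

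Members near the start of chromosome 15 were lower in the dKO clones nearly throughout, while the median of the other members lay closer to that of all transcripts. Members were taken in consecutive blocks of 40 by start position, giving 15 blocks, the last with 22. Blocks 1, 2 and 3, which run from Sepp1 at 3.3 Mb to Rad21 at 52.0 Mb, had median log2 fold changes (dKO over control) of -0.33, -0.38 and -0.34, against -0.00 over all 16683 transcripts tested. Their 120 members had a median of -0.35, a level 21.7% below control, and 111 of the 120 had a negative value, as did 50.2% of all transcripts tested. In a bulk culture, fewer cells with a transcript and less of it per cell cannot be told apart. Blocks 4 to 15, from Med30 at 52.7 Mb to Pde1b at 103.5 Mb, had 462 members with a median of -0.06, of which 296 (64.1%) were negative. That blocks 1 to 3 were set against the others was decided after their values were seen, so the contrast between these stretches has no test. No DNA measurement was analysed here.

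**Figure D1:**
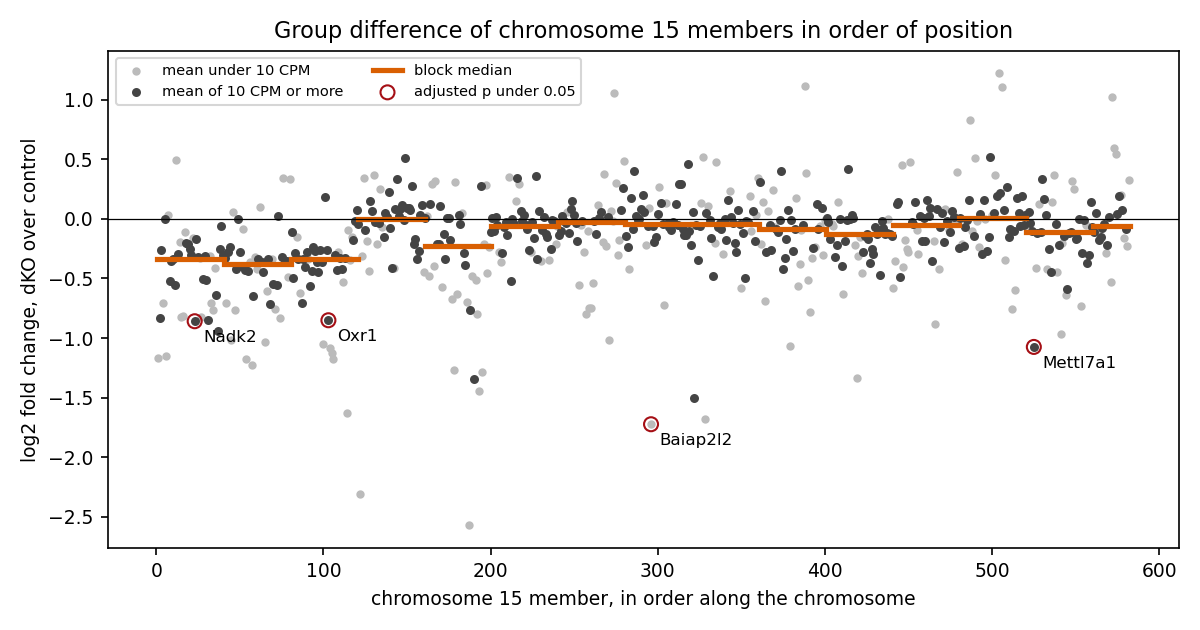
Log2 fold change (dKO over control, vertical axis) of each of the 582 members in order along the chromosome (horizontal axis). Grey points are members with a mean under 10 CPM, dark points the others, orange bars the block medians and red circles the 4 members past the limma threshold; the first 3 bars lie at -0.33, -0.38 and -0.34 and the fourth at 0.00.

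Counting members whose 3 dKO libraries all lay below all 3 control libraries showed the same stretch. This was so for 61 of 120 members in blocks 1 to 3 (50.8%), where the share over all transcripts tested was 5.68%. The opposite order, with all dKO libraries above all control libraries, was found for 0 of these 120 members and for 5.17% of all transcripts. In blocks 4 to 15 the groups were apart and lower for 46 of 462 members (9.96%) and apart and higher for 15. Over all 582 members 107 were apart and lower (18.4%) and 15 apart and higher (2.58%). At an unadjusted limma p under 0.05, 50 members of blocks 1 to 3 were lower and 0 higher, with 29 lower and 9 higher in blocks 4 to 15; the shares over all transcripts were 3.84% lower and 2.40% higher.

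Each of the 6 libraries showed the stretch. A library's deviation is its median, over the members, of the log2 level minus the gene's mean over the 6 libraries, set to 0 for all transcripts tested. Over blocks 1 to 3, control clones 1, 2 and 3 had 0.11, 0.23 and 0.22, whereas dKO clones 1, 2 and 3 had -0.19, -0.18 and -0.13. The groups did not overlap, and 0.24 separated the lowest control from the highest dKO library. Over the 72 of these members with a mean of at least 10 CPM, the control clones had 0.21, 0.09 and 0.11 and the dKO clones -0.25, -0.25 and -0.06, a separation of 0.16. Control clone 1 was the lowest control over all members and the highest over these. It was also the highest control over all tested transcripts at that level, where the control clones had 0.13, -0.13 and -0.05. The dKO clones had -0.04, -0.09 and 0.11 there. The separation of 0.16 thus includes library offsets that belong to that level and not to the stretch. In block 1 the control libraries had 0.12, 0.27 and 0.21 and the dKO libraries -0.18, -0.14 and -0.15. In block 2 they had 0.03, 0.25 and 0.26 against -0.23, -0.18 and -0.11. In block 3 they had 0.15, 0.10 and 0.18 against -0.19, -0.23 and -0.11. The groups were thus separate in each of these blocks, most narrowly in block 2, where control clone 1 lay closest to the dKO clones. In block 4 all 6 values lay between -0.02 and 0.06, and the groups overlapped.

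**Figure D2:**
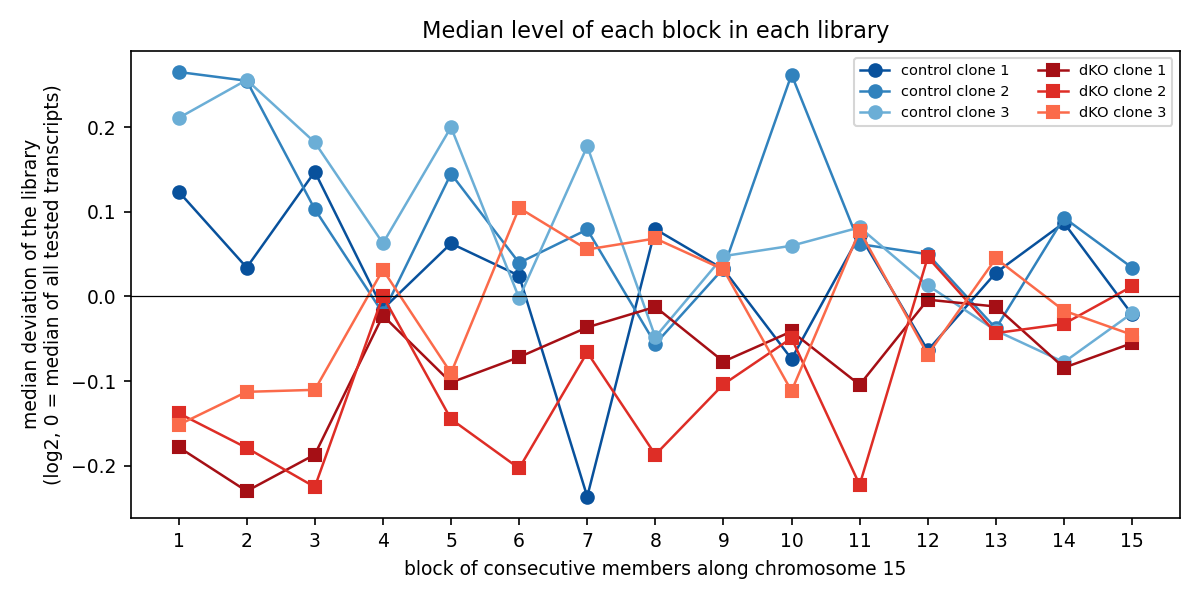
Median deviation of each library (log2, vertical axis; 0 is the median of all tested transcripts) in the 15 blocks along chromosome 15 (horizontal axis), with blue circles for the 3 control clones and red squares for the 3 dKO clones. The groups are apart in blocks 1, 2 and 3, with the control clones higher, meet in block 4 and are apart again in block 5, by 0.15.

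Pairs of libraries gave the same picture. Across the 9 pairs of 1 dKO and 1 control library, the median difference over blocks 1 to 3 ran from -0.39 to -0.28. Within a group, the 6 pairs differed by 0.00 to 0.17 in size. Over blocks 4 to 15, the 9 pairs between groups ran from -0.15 to 0.01, and those with dKO clone 3 lay at 0.00 to 0.01. For the members of blocks 1 to 3 with at least 10 CPM, the 9 pairs ran from -0.49 to -0.17 and pairs within a group differed by 0.01 to 0.16 in size, so the closest pair between groups, dKO clone 3 and control clone 2, was near the spread within a group. The pair of libraries that stood apart, dKO clone 3 and control clone 1, gave -0.28 over blocks 1 to 3.

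The share of each library's reads that fell on these members showed the same step without a fitted fold change. Members of blocks 1 to 3 took 0.934%, 0.981% and 0.957% of the reads of control clones 1, 2 and 3. In the dKO clones, again in the order 1, 2, 3, the shares were 0.748%, 0.760% and 0.755%. Every dKO share was below every control share, and the 3 values within each group lay close together. Members of blocks 4 to 15 took 3.86%, 4.13% and 4.02% in control and 3.89%, 3.77% and 3.87% in dKO clones, and there the groups overlapped.

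**Figure D3:**
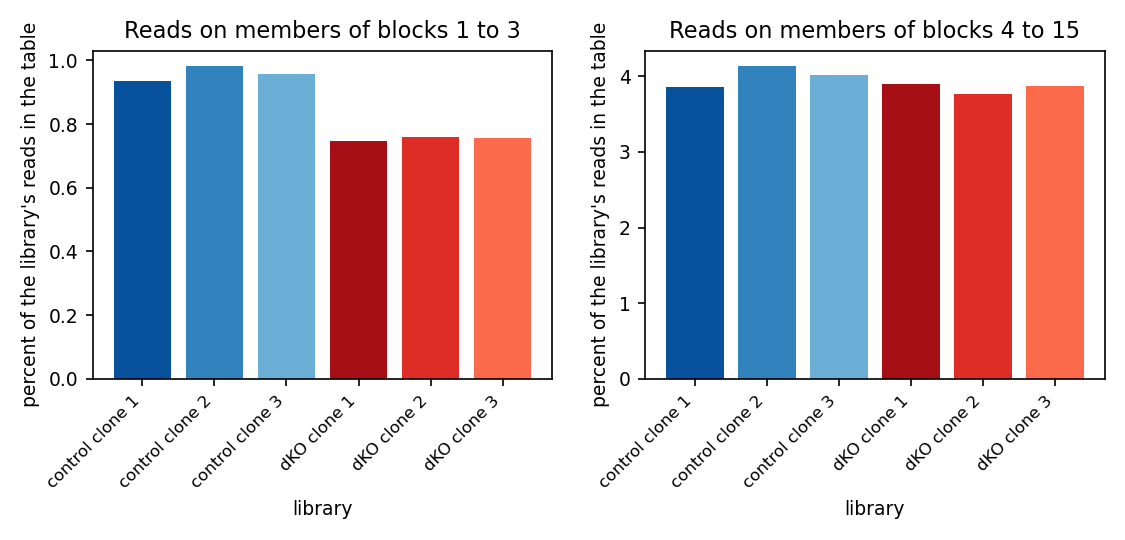
Percent of each library's reads in the table (vertical axes, from 0) that lie on members of blocks 1 to 3 (left) and of blocks 4 to 15 (right), 1 bar per library. On the left the dKO bars reach 0.748% to 0.760% and the control bars 0.934% to 0.981%; on the right the groups overlap.

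The difference was of similar size across the stretch. In blocks of 20 members, the first 6 medians were -0.32, -0.37, -0.40, -0.36, -0.35 and -0.33, and the seventh, from 52.7 to 58.2 Mb, was -0.04. The lowest block of 20 lay outside the stretch, from 74.7 to 75.9 Mb, with a median of -0.42 (-0.20 over its 8 members of at least 10 CPM). In windows of 10 Mb, the first 5 medians were -0.32, -0.46, -0.40, -0.36 and -0.42, and the sixth was 0.01. Among the 72 members of blocks 1 to 3 with a mean of at least 10 CPM, the median was -0.34, the quartiles were -0.44 and -0.26, and 69 were negative. Of these, 57 (79.2%) were apart and lower, against 7.33% of all transcripts at that level and 36 of 293 (12.3%) in blocks 4 to 15. The 36 members of blocks 1 to 3 under 2 CPM had a median of -0.62, where all tested transcripts under 2 CPM had -0.09. Of the 36, 1 was apart and lower (2.78%), near the share of 2.27% over all tested transcripts under 2 CPM. At that low level control clone 1 and dKO clone 3 lay far below the other 4 libraries, and their part in the lower median was not tested.

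The same blocks of 40 were made on the 18 other autosomes, giving 334 blocks, to show how often such values arise. Their medians ran from -0.44 to 0.26. Only 3 of the 334 had a median at or below -0.33, and all 3 were on chromosome 14, where dKO clone 3 alone had a library median of -0.47 or lower. The dKO library medians lay below all control medians in 13 of the 334, with a gap of at most 0.08, whereas the gaps in blocks 1, 2 and 3 were 0.26, 0.15 and 0.21. The highest number of apart and lower transcripts in a block elsewhere was 14 of 40 (35.0%), against 15, 22 and 24 of 40 in blocks 1, 2 and 3. Whole-chromosome medians over all tested rows were -0.24 for chromosome 14, -0.16 for chromosome 6 and -0.14 for chromosome 15, and the highest was 0.13, for chromosome 19.

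**Figure D4:**
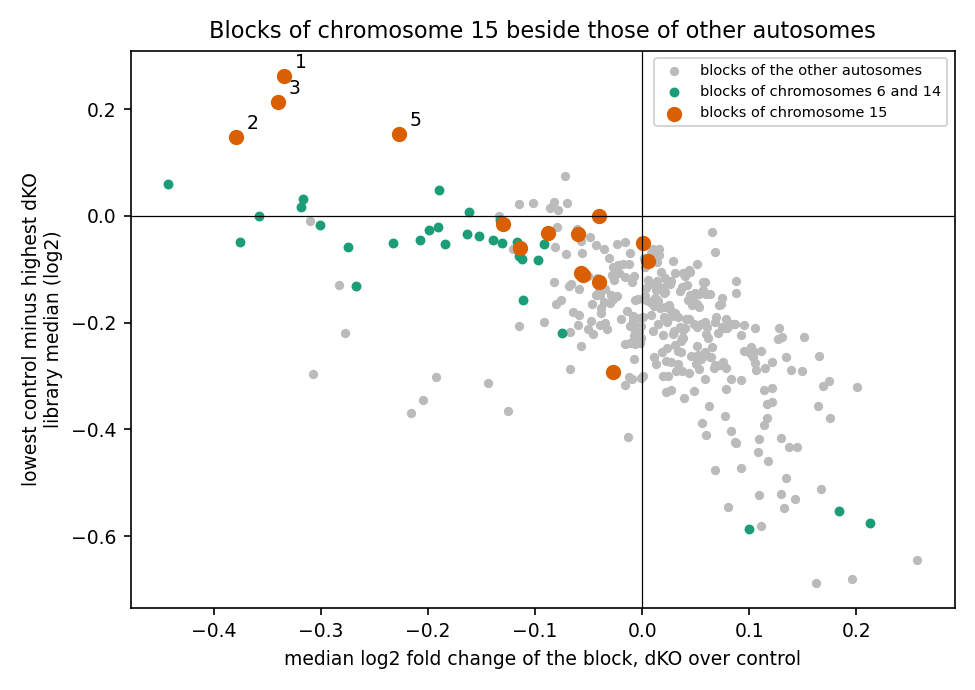
Each point is a block of consecutive tested genes, placed by its median log2 fold change (horizontal axis) and by the lowest control minus the highest dKO library median (vertical axis, log2; above 0 the groups do not overlap). Orange points are the 15 blocks of chromosome 15, green those of chromosomes 6 and 14, grey those of the other autosomes; blocks 1, 2, 3 and 5 of chromosome 15 lie highest, at gaps of 0.26, 0.15, 0.21 and 0.15.

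Across the whole chromosome, 4 members passed the limma threshold and all were lower in the dKO clones; of all transcripts tested, 0.168% passed in either direction, 0.114% lower and 0.0539% higher. Nadk2 and Oxr1 lie in the lower stretch, Baiap2l2 and Mettl7a1 outside it. No member passed as higher, where 9 had an unadjusted p under 0.05. The edgeR quasi-likelihood test on recovered reads called 3 members, each lower (0.515%, against 0.114% of all transcripts), while DESeq2 gave 16 lower members (2.75%, against 0.899%) and 1 that was higher (0.172%, against 0.354%). In the 4 libraries left without control clone 1 and dKO clone 3, limma called 42 members lower (7.22%, against 1.71% of all transcripts) and 5 higher (0.859%, against 1.68%). Of these, 22 lower and 0 higher lay in blocks 1 to 3. Leaving out 1 library at a time left 0 to 10 members past the limma threshold, with 0 when control clone 2, dKO clone 1 or dKO clone 2 was left out and 10 when control clone 1 was. Of those 10, 8 were lower (1.37%, against 0.336% of all transcripts) and 2 higher (0.344%, against 0.492%). Over all transcripts tested, 138 passed without control clone 1 and 27 without control clone 2. Without dKO clone 1 there were 13 and without dKO clone 2 there were 11, against 28 with all 6 libraries.

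Nadk2, the mitochondrial kinase that makes NADP from NAD, had 48.3, 51.5 and 55.9 CPM in the control clones against 28.8, 29.4 and 27.5 CPM in the dKO clones. The dKO clones lay close together and well below every control clone. Means were 51.9 ± 3.81 and 28.6 ± 0.981 CPM (SD, n = 3 each), so the dKO level was 1.81-fold lower (95% interval 1.49 to 2.21; log2 scale -0.86, SE 0.13, limma adjusted p = 0.0333). The gene (ENSMUSG00000022253.15) lies at chromosome 15, 9071260 to 9110487 on the plus strand of GRCm38, with 14 exons in its listed transcript.

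Oxr1, which protects cells against oxidative damage, had 329, 376 and 316 CPM in the control group against 164, 194 and 209 CPM in the dKO group. It was the more abundant of the called genes, and its groups were far apart. Means were 340 ± 31.8 and 189 ± 22.7 CPM, or 1.80-fold lower (1.46 to 2.23; log2 scale -0.85, SE 0.14, limma adjusted p = 0.0478). It lies from 41789034 to 41861045 on the plus strand, with 14 exons. Among the 72 members of the stretch with at least 10 CPM the lower quartile was -0.44, and others reached similar values without passing the test: Npr3 was the lowest at -0.94, and Rai14 and Ghr had -0.85 and -0.83.

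Baiap2l2, an I-BAR protein that bends membranes over actin at microvilli, had 8.55, 15.7 and 11.7 CPM in the control group against 3.11, 3.96 and 3.42 CPM in the dKO group. The dKO clones agreed closely while the control clones spread widely. It was 3.30-fold lower (2.20 to 4.95; log2 scale -1.72, SE 0.27, limma adjusted p = 0.0364). It lies in block 8, from 79258195 to 79285537 on the minus strand, and the median of that block was -0.04. Mettl7a1 had 35.4, 34.0 and 28.8 CPM in the control group against 17.0, 16.5 and 13.1 CPM in the dKO group. It was 2.11-fold lower (1.64 to 2.71; log2 scale -1.07, SE 0.16, limma adjusted p = 0.0360). It lies in block 14, from 100304817 to 100314348 on the plus strand with 2 exons, where the median was -0.11. Reads from its close paralogs cannot be told apart, since no source used here gives the treatment of shared reads.

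In the authors' deposited table of their own comparison, which lists 395 members, the log2 fold changes were -0.89 for Nadk2, -0.88 for Oxr1, -1.82 for Baiap2l2 and -1.08 for Mettl7a1, all with a false discovery rate under 0.05. The median over the 77 members of blocks 1 to 3 in the authors' deposited table was -0.36, with 73 negative, 19 past a false discovery rate of 0.05 and lower, and 0 higher; 2.49% of all its transcripts were lower and 0.981% higher by that rule. The 318 members of blocks 4 to 15 in the authors' deposited table had a median of -0.07, with 12 lower and 1 higher. That table was made from the same 6 libraries and is no separate measurement.

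**Figure D5:**
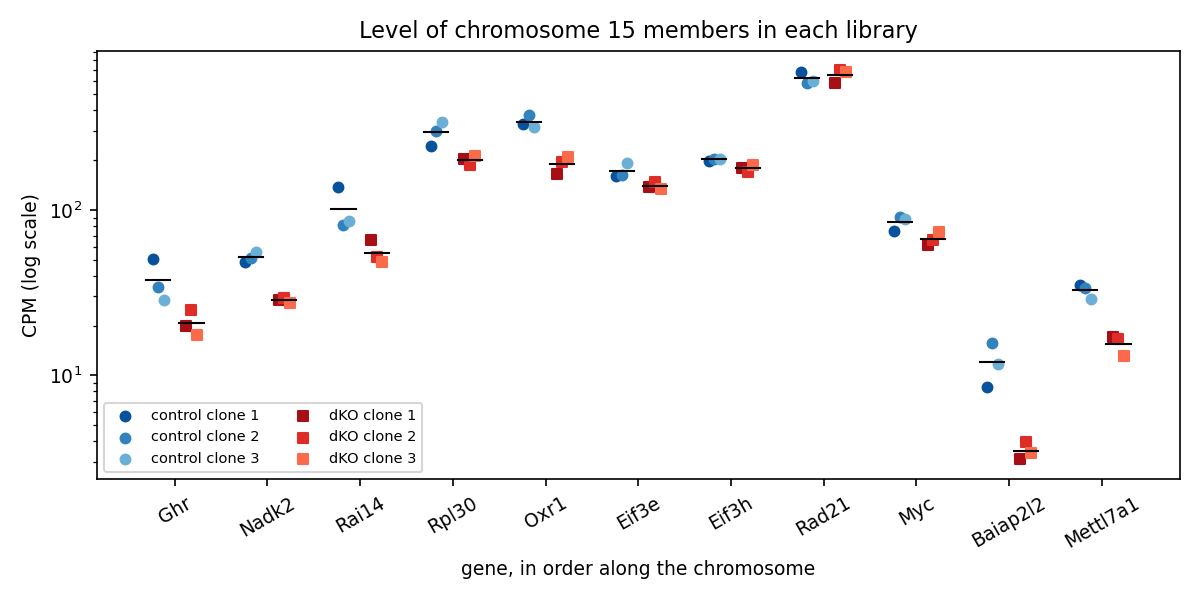
Level of 11 members in each library (vertical axis, CPM on a log scale), in order along the chromosome (horizontal axis); blue circles are control clones, red squares dKO clones and black bars group means. From Ghr to Eif3h the groups do not overlap, at Rad21 they do, and Baiap2l2 and Mettl7a1 are lower in every dKO clone.

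Genes of translation lay on both sides of the step. The list of 12 held 4 members in blocks 1 to 3, Rpl30, Pabpc1, Eif3e and Eif3h, of which 4 were negative and apart with a median of -0.42. Its 8 members in blocks 4 to 15 had a median of -0.07, 5 were negative and 1 was apart and lower. Over the 12, 41.7% were apart and lower, against 5.68% of all transcripts. None of the 12 passed the limma threshold. Rpl30, a protein of the large ribosomal subunit, had 243, 302 and 341 CPM in the controls against 202, 187 and 212 CPM in the dKO clones (log2 fold change -0.55, SE 0.15, limma adjusted p = 0.294). Pabpc1, which binds the poly(A) tail of mRNA, had 353, 206 and 222 CPM against 151, 157 and 156 CPM (-0.71, SE 0.19, limma adjusted p = 0.268). Control clone 1 was the highest for Pabpc1 and the lowest for Rpl30, and in both genes all dKO clones lay below it.

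Subunits of 1 complex could be compared across the step, a comparison chosen after the values were seen. Eif3e had 161, 163 and 191 CPM in the controls against 137, 147 and 134 CPM in the dKO clones, with a log2 fold change of -0.30 (SE 0.12). Eif3h had 198, 204 and 204 CPM against 179, 169 and 187 CPM (-0.18, SE 0.12). Both are eIF3 subunits from block 3, and their groups did not overlap. Eif3d, in block 7, had 325, 308 and 349 CPM against 322, 314 and 354 CPM (0.01, SE 0.13), and Eif3l, in block 8, had 309, 303 and 329 CPM against 306, 298 and 338 CPM (0.00, SE 0.12). Those 2 subunits overlapped almost fully between groups. Among proteins of the large ribosomal subunit, Rpl37 in block 1 had a log2 fold change of -0.52 (SE 0.14; 374 ± 44.1 to 260 ± 19.4 CPM), while Rpl3 in block 8 had -0.10 (SE 0.15; 609 ± 62.8 to 566 ± 45.6 CPM) and Rpl8 in block 7 had -0.18 (SE 0.17; 1386 ± 150 to 1217 ± 75.4 CPM). Ribosomal protein genes have many near-identical copies elsewhere in the genome, so their reads are uncertain. Tars, the threonyl-tRNA synthetase, had 188 ± 24.1 CPM in the controls against 121 ± 14.04 CPM in the dKO clones (-0.64, SE 0.14, limma adjusted p = 0.162).

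The cyclic AMP and CREB list had 13 tested members over the chromosome, and none passed the limma threshold. Of these, 11 were negative, 4 were apart and lower (30.8%, against 5.68% of all transcripts) and 1 apart and higher (7.69%, against 5.17%), with a median of -0.22. Ptger4, the E2 receptor whose promoter is printed above, had 13.2, 14.6 and 14 CPM in the controls against 9.56, 9.06 and 9.79 CPM in the dKO clones. Its groups were tight and apart, at -0.56 on the log2 scale (SE 0.17, limma adjusted p = 0.421), and it was the list's 1 member in blocks 1 to 3. Myc, the growth-promoting transcription factor in block 4, had 74.1, 91.1 and 87.9 CPM against 61.4, 65.4 and 73.8 CPM (-0.33, SE 0.13). Atf4, the factor of the integrated stress response in block 9, had 559, 624 and 684 CPM against 454, 474 and 538 CPM (-0.35, SE 0.15), and Tob2, an antiproliferative protein, had 49.7 ± 4.18 against 40.7 ± 1.44 CPM (-0.28, SE 0.13). For Myc the lowest control clone and the highest dKO clone nearly met. Tfcp2, a transcription factor, was the member apart and higher, at 39.0 ± 1.89 against 43.7 ± 1.37 CPM (0.16, SE 0.12).

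The enzymes and targets closest to cyclic AMP itself overlapped between groups. Adcy6, an adenylyl cyclase that makes cyclic AMP, had 286, 271 and 229 CPM in the controls against 218, 213 and 239 CPM in the dKO clones (log2 fold change -0.23, SE 0.13). Rapgef3, the exchange factor Epac1 that cyclic AMP also activates, had 73.1 ± 8.64 against 69.7 ± 4.93 CPM (-0.07, SE 0.13). Nr4a1, an immediate early gene and CREB target, had 17.5 ± 4.94 against 15.8 ± 2.07 CPM (-0.12, SE 0.21). The CREB relatives Atf1 and Atf7 had log2 fold changes of -0.10 and -0.22, and the coactivator gene Ep300 had -0.18. Adcy8 and the phosphodiesterase gene Pde1b lay near 1 CPM, with -0.45 and 0.32 and standard errors of 0.62 and 0.82.

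Receptor and growth factor genes lay in both stretches. All 7 tested members of the receptor and growth factor list in blocks 1 to 3 were negative and 2 were apart and lower. In blocks 4 to 15, 3 of 7 were negative, with 0 apart and lower. Over the 14 tested, 14.3% were apart and lower, against 5.68% of all transcripts. Ghr, the growth hormone receptor, had 50.5, 34.1 and 28.6 CPM in the controls against 19.9, 24.8 and 17.5 CPM in the dKO clones (-0.83, SE 0.22, limma adjusted p = 0.262). Fzd6, a Wnt receptor, had 241, 167 and 167 CPM against 137, 128 and 153 CPM (-0.44, SE 0.16). Both were apart, with control clone 1 the highest. Npr3, the clearance receptor for natriuretic peptides, had 71.6, 48.6 and 81.3 CPM against 23.2, 31.0 and 55.0 CPM (-0.94, SE 0.28), where dKO clone 3 lay above control clone 2. Lifr, Osmr, Prlr and Angpt1 had mean levels of 0.603 to 5.08 CPM in either group, with groups that overlapped and log2 fold changes of -0.82, -0.19, -0.83 and -1.12.

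Other lists had few members in blocks 1 to 3. Their counts of members apart and lower stand beside a share of 5.68% over all transcripts. Of 4 mitochondrial and metabolic members there, 4 were negative and 2 apart and lower: Nadk2, and Cox6c, a subunit of cytochrome c oxidase, with 119 ± 4.44 against 93.7 ± 11.98 CPM (-0.36, SE 0.13). Amacr, a racemase of branched fatty acids, had 7.74, 14.1 and 14.4 CPM against 6.92, 7.98 and 6.45 CPM (-0.71, SE 0.26), and Oxct1, the enzyme that uses ketone bodies, had 168 ± 15.4 against 167 ± 5.12 CPM (-0.00, SE 0.12). The 14 members of that list in blocks 4 to 15 had a median of -0.01, 8 were negative and 0 were apart and lower. Of the cell cycle and DNA repair list, Rrm2b, the ribonucleotide reductase subunit that p53 induces, had 34.5 ± 3.22 against 23.4 ± 3.48 CPM (-0.56, SE 0.16), and Rad1, a checkpoint clamp subunit, had 19.8 ± 0.946 against 13.9 ± 1.80 CPM (-0.51, SE 0.16). Both were apart and lower, and the list's 9 members in blocks 4 to 15 had a median of 0.01 with 0 apart. Of the carrier and channel list, Atp6v1c1, a proton pump subunit, had 99.0 ± 8.08 against 77.5 ± 11.5 CPM (-0.36, SE 0.14), and Slc25a32, the mitochondrial folate carrier, had 18.6 ± 1.32 against 15.5 ± 0.976 CPM (-0.26, SE 0.16). Slc1a3, a glutamate transporter and the remaining member there, lay near 1 CPM. The 13 carrier and channel members in blocks 4 to 15 had a median of -0.12, 8 were negative and 2 were apart and lower. Trio was the 1 member of the cytoskeletal list in the stretch, with 355 ± 67.8 against 260 ± 25.04 CPM (-0.44, SE 0.16). The 19 later members of that list had a median of -0.05, 11 were negative and 4 were apart and lower. None of these genes except Nadk2 passed the limma threshold.

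The 3 members of block 2 with the lowest p lay within 0.3 Mb of one another. Laptm4b, a lysosomal membrane protein, had 109, 99.1 and 103 CPM in the controls against 54.0, 54.4 and 86.3 CPM in the dKO clones, so dKO clone 3 lay between the other dKO clones and the controls (-0.71, SE 0.18, limma adjusted p = 0.231). Hrsp12, a deaminase that clears reactive enamines, had 23.8, 31.7 and 31.8 CPM against 19.4, 18.6 and 20.8 CPM (-0.56, SE 0.16, limma adjusted p = 0.363). Rpl30, given with translation, was the other. Rai14 in block 1 had 138, 81.3 and 85.5 CPM against 65.5, 52.2 and 48.2 CPM (-0.85, SE 0.20, limma adjusted p = 0.208), again with control clone 1 the highest.

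Not every member of the stretch was lower. Of the 120, 9 had a positive log2 fold change, 3 of them with at least 10 CPM: Pop1 (0.02, SE 0.16), Lrp12 (0.18, SE 0.18) and Rad21 (0.07, SE 0.15). Lrp12, a receptor of the LDL receptor family in block 3, had 16.2, 13.3 and 17.7 CPM in the controls against 16.5, 16.1 and 20.99 CPM in the dKO clones. Dab2, an endocytic adaptor in block 1, had 3.43, 8.61 and 7.14 CPM against 6.65, 6.37 and 14 CPM (0.49, SE 0.38), and dKO clone 3 made the mean higher. The groups overlapped in each of these genes. Of the 72 members with at least 10 CPM, 15 overlapped between groups, and 7 of these had a log2 fold change above -0.10.

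Within blocks 1 to 3, the run of lower members ended between Ebag9 and Utp23, a limit placed after the values were seen. From the first member to Ebag9 at 44.6 Mb, 67 of the 69 members with at least 10 CPM were negative, with a median of -0.34. Of these 69, 56 were apart and lower (81.2%, against 7.33% of all transcripts at that level). Ebag9 itself had 22.6, 28.2 and 28.8 CPM in the controls against 20.8, 20.7 and 21.4 CPM in the dKO clones (-0.33, SE 0.15). The 4 members between Ebag9 and Eif3h had means of 0.777 to 1.74 CPM, too low to place the end more closely. Eif3h, at 51.8 Mb, was apart and lower at -0.18. The next, Utp23, a ribosome assembly factor, had 19.1 ± 2.90 against 18.8 ± 0.440 CPM (-0.01, SE 0.17). Rad21, a cohesin subunit, had 682, 587 and 599 CPM against 586, 698 and 679 CPM, and Med30, a Mediator subunit that opens block 4, had 35.7 ± 3.85 against 34.5 ± 3.05 CPM (-0.05, SE 0.14). All 3 overlapped between groups. Of the 29 members of block 4 with at least 10 CPM, 12 were negative and 2 apart and lower. The share apart and lower over all transcripts at that level was 7.33%.

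Beyond 52.0 Mb, blocks 5, 9 and 11 each had 7 of 40 members apart and lower (17.5%, against 5.68% of all transcripts). Block 11, from 85.3 to 89.5 Mb, had a median of -0.13 with 33 of 40 negative, and its control libraries, at 0.06 to 0.08, overlapped with dKO clone 3 at 0.08. Block 5, from 65.8 to 75.9 Mb, had a median of -0.23, with control libraries at 0.06, 0.14 and 0.20 and dKO libraries at -0.10, -0.15 and -0.09. Its 18 members with at least 10 CPM had a median of -0.12. Without control clone 1 the block's median was -0.35, and without control clone 2 it was -0.11. This block holds genes of the Ly6 family, small proteins of which many are held at the cell surface by a lipid anchor. All 7 tested Ly6 members were negative and 3 were apart and lower (42.9%, against 5.68% of all transcripts), with a median of -0.76. Ly6e had 150, 30.6 and 42.5 CPM in the controls against 28.7, 21 and 19.9 CPM in the dKO clones (-1.34, SE 0.45, limma adjusted p = 0.491), and its control mean rested on clone 1. Lypd2 had 8.27, 3.503 and 4.17 CPM against 1.57, 0.602 and 0.505 CPM (-2.57, SE 0.50, limma adjusted p = 0.111). Lynx1, a modulator of nicotinic receptors, had 15.3, 19.4 and 15.2 CPM against 10.1, 7.57 and 12.01 CPM (-0.76, SE 0.21, limma adjusted p = 0.330). Psca had 23.1 ± 8.92 against 18.3 ± 4.03 CPM (-0.29, SE 0.25) with overlap, and Ly6a and Slurp1 stayed under 2 CPM in every library. Ly6 genes are close paralogs, so reads shared among them are uncertain. Top1mt, the mitochondrial topoisomerase in the same block, had 7.30, 7.69 and 11.4 CPM against 3.21, 3.90 and 3.48 CPM (-1.28, SE 0.26, limma adjusted p = 0.113).

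Single members with large differences were found in other blocks whose medians were small. Samd12 in block 4 had 2.82, 1.80 and 1.96 CPM in the controls against 0.324, 0.412 and 0.449 CPM in the dKO clones (-2.31, SE 0.50, limma adjusted p = 0.148). Mgat3 in block 9, the enzyme that adds the bisecting sugar of N-glycans, had 54.4, 37.1 and 26.0 CPM against 18.3, 14.6 and 8.47 CPM (-1.51, SE 0.30, limma adjusted p = 0.114). Fam83f, also in block 9, had 2.35 ± 1.16 against 0.700 ± 0.390 CPM (-1.68, SE 0.56). The median of block 4 was 0.00 and that of block 9 was -0.04. In block 9, however, 7 of 40 members were apart and lower (17.5%, against 5.68% of all transcripts), these 2 among them. In block 4 this was so for 3 of 40 (7.5%). Plec in block 6, the cytoskeletal linker plectin, was named after its values were seen and had 541 ± 87.3 against 375 ± 41.8 CPM (-0.52, SE 0.16, limma adjusted p = 0.409).

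Members that were apart and higher numbered 15 (2.58%, against 5.17% of all transcripts), and none passed the limma threshold. Dnajc22 in block 13, a chaperone partner of the endocytic pathway, had 8.74, 3.24 and 5.07 CPM in the controls against 11.98, 13.02 and 11.9 CPM in the dKO clones (1.22, SE 0.31, limma adjusted p = 0.255). Its dKO clones were nearly equal while the control clones spread. Kcnh3, a potassium channel, and Ccdc65, a ciliary protein, lie in the same block and had 1.01 ± 0.178 against 2.24 ± 0.419 CPM (1.11, SE 0.41) and 1.66 ± 0.401 against 2.95 ± 0.116 CPM (0.83, SE 0.35). H1f0, a linker histone, had 730, 558 and 634 CPM against 758, 837 and 929 CPM (0.40, SE 0.16). Zbed4, Csrnp2, Lgals2 and Zfp41 had log2 fold changes of 0.42, 0.33, 0.48 and 0.28. The median of block 13 was 0.00, and 4 of its 40 members were apart and higher (10%, against 5.17% of all transcripts).

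The most abundant members did not separate the groups, with 1 exception by a small amount. Myh9, non-muscle myosin, had 1797 ± 79.3 against 1782 ± 209 CPM, Cbx5, a heterochromatin protein, 1016 ± 115 against 1044 ± 57.4 CPM, and Mal2, of apical traffic, 1199 ± 48.5 against 1127 ± 77.3 CPM. Tcf20, a transcriptional coregulator, had 1273, 1279 and 1365 CPM in the controls against 1245, 1265 and 1186 CPM in the dKO clones, which did not overlap at a log2 fold change of -0.08 (SE 0.16).

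Large differences were also found in the families left out, and the groups overlapped in the nearest members on either side. Aqp2, the water channel that vasopressin controls, had a log2 fold change of -6.30 (limma adjusted p = 1.62e-05). Faim2, 51039 bases before it, had -0.60 (SE 0.33) and Racgap1, 35951 bases after it, 0.17 (SE 0.15). Zhx2, a transcriptional repressor in block 4's span, had -3.94 (limma adjusted p = 0.0182). Has2, as far as 1000126 bases before Zhx2, had -0.07 (SE 0.72), and Derl1, 29670 bases after Zhx2, had -0.16 (SE 0.12). Gsdmc2 and Gsdmc4, gasdermins, had -3.92 and -2.31 (limma adjusted p = 0.00247 and 0.0241), while Gsdmcl2 and Gsdmc had -1.45 and -0.48 and did not pass. The nearest members were Pvt1, as far as 1524995 bases before the Gsdmc genes, at -0.27 (SE 0.16), and Fam49b, 26161 bases after them, at 0.03 (SE 0.13).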

How the data were processed

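Ribosome-depleted total RNA was made into stranded libraries, per the labels' protocols. Tools listed, with no role, in the submitters' processing notes were HOMER 4.8, edgeR, SAMtools and STAR 2.5.2a, and the build was GRCm38.p5; whether strand was used and how shared reads were counted is not stated there. The deposited read columns are a signal, in which the authors brought every library to the same total. Every value was a whole multiple of 1 step per library (100% within 0.01), which gave whole reads and depths of 28596444 to 42515838. Depth sets the precision of low genes. The deposited FPKM values were not used for tests. The authors' deposited table gives log2 fold changes, p-values and false discovery rates.

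Groups were compared in R 4.3.3 by limma-trend, version 3.58.1, on log2(scaled reads / TMM factor + 1), with TMM from edgeR 4.0.16, all 6 libraries, group as the only term, and Benjamini-Hochberg adjustment over the 16683 of 20896 transcripts kept by filterByExpr (minimum 10 reads, total 15); fold changes on this scale understate those of low genes. CPM values are recovered reads over TMM-adjusted totals. Whole reads also went through edgeR's quasi-likelihood test and DESeq2 1.42.0, as alternatives. Scripts were tested on simulated data. Each clone gave 1 library, so p-values weigh the group difference against a spread that includes differences between clones. Blocks held 40 members each, and their medians have no test.

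Members, lists and tests were chosen with earlier results of these data known, and nothing already seen in them is independent support. The genes named were the members past the threshold; the 8 lowest and 8 highest others that were apart with a higher mean of at least 2 CPM; the cyclic AMP list; the 5 most abundant; the neighbours of Aqp2, Zhx2 and the Gsdmc genes; and the 3 of lowest p in the lowest and highest blocks. Predicted or clone-named gene models were passed over in choosing the lowest and highest others. Rpl37, Rpl3, Tars, Eif3d, Eif3l, Plec, Dab2, Lrp12, Pop1, Rad21, Utp23, Med30, Ebag9 and the other list members given were named after their values were seen, as was the limit of 10 CPM for members and the contrast of blocks 1 to 3 with the rest.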

Additional observations from a re-analysis of the deposited data

How the results depend on the processing

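The 3 block medians kept their negative sign in all 54 alternative values computed for blocks 1 to 3. Of 216 alternative values for blocks 4 to 15, 29 moved by more than 1 SD; without control clone 1, block 5 reached -0.35, as low as block 3 at -0.35, with block 10 at -0.28 and block 7 at -0.22, and without control clone 2 block 5 was -0.11. Without control clone 1 and dKO clone 3, the medians of blocks 1 and 2 were -0.43 and -0.49 (the lowest block -0.49) and that of all members -0.19, with 566 transcripts and 47 members called. dKO clone 3 against control clone 1 gave -0.24 and -0.26 for blocks 2 and 3 and -0.0399 for all members. Means in place of medians gave -0.45 and -0.43 for blocks 1 and 3 and -0.18 for all members. Leaving out single libraries gave -0.55 to -0.31 for block 1, -0.55 to -0.37 for the lowest block and -0.17 to -0.0704 for all members; it moved the count over the table from 11 to 138 and of members from 0 to 10, with 10 without control clone 1, 0 without control clone 2, dKO clone 1 or dKO clone 2, 2 without control clone 3 and 1 without dKO clone 3. Against 28 transcripts and 4 members, calls were 17 and 0 without TMM factors, 209 and 17 by DESeq2 and 71 transcripts with the library split as a term. Members called were 2 with no filter on low reads, 1 with chromosome medians removed and 8 with the excluded families put back. Correlations of deviations between same-numbered clones were -0.36, 0.64 and -0.34, and that of control clone 1 with dKO clone 3 was 0.66. With such mixed signs they cannot show whether the numbers pair clones. With a replicate block 196 transcripts and 15 members were called. Adjusted p over 19 settings ran from 3.23e-06 to 0.144 for Nadk2, 2.78e-06 to 0.213 for Oxr1, 6.79e-07 to 0.139 for Baiap2l2 and 3.91e-06 to 0.112 for Mettl7a1 by limma and the count tools, under 0.05 in 12, 9, 11 and 13 of them. The cause of these changes was not tested.

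Of 82 genes named, 60 kept their sign in every alternative run; the other 22 had not passed the threshold. Without control clone 1 and dKO clone 3, log2 fold changes were 0.0613 for Rapgef3, 0.0502 for Nr4a1, -0.0223 for Pde1b, -0.044 for Eif3d, -0.0647 for Eif3l, -0.27 for Dab2, -0.0617 for Pop1 and 0.0178 for Oxct1. DESeq2 gave -0.00603 for Eif3l and its size factors -0.00752, and no TMM factors 0.00527 for Oxct1. With chromosome medians removed, which raises every member, values were 0.065 for Rapgef3, 0.026 for Atf1, 0.0114 for Nr4a1, 0.0397 for Mal2, 0.0472 for Tcf20, 0.11 for Myh9, 0.0637 for Has2, 0.026 for Rpl3, 0.12 for Utp23, 0.0842 for Med30 and 0.13 for Oxct1. Leaving out single libraries ran from -0.95 to 0.0405 for Adcy8, -0.12 to 0.0294 for Rapgef3, -0.27 to 0.10 for Nr4a1, -0.42 to 1.02 for Pde1b, -0.013 to 0.14 for Cbx5, -0.10 to 0.0697 for Myh9, -0.61 to 0.45 for Has2, -0.0331 to 0.13 for Fam49b, -0.0401 to 0.0593 for Eif3d, -0.0533 to 0.0378 for Eif3l, -0.15 to 0.0625 for Utp23, -0.12 to 0.0332 for Med30, -0.11 to 0.12 for Pop1, -0.0812 to 0.0409 for Oxct1, -1.50 to 0.0381 for Prlr, -1.20 to 0.79 for Slc1a3 and -0.49 to 0.0108 for Psca.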
